A study of Mus musculus with 6 samples.

Results

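Imprinted genes are expressed only or mainly from the maternal or from the paternal copy, depending on the gene and, for some, on the tissue. The 41 imprinted genes described here were given as a list of symbols, and all 41 matched an Ensembl identifier in GENCODE vM21, among the 50686 gene identifiers of the count files. They fall into 17 clusters, taken from textbook knowledge as neighbouring genes under shared control, and comprise 34 protein-coding genes and 7 noncoding RNAs. Of the 41, 22 are listed as expressed from the paternal copy, 17 from the maternal copy, and *Gnas* and *Grb10* from either copy depending on the promoter. The rule that lists them refers to no measured value.

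RNASeq was available for 2 wild-type cultures of neural stem cells (NSC) and for 2 cultures labelled NSC Bmi1Over, of the genotype STOPFloxBmi1;NestinCre, in which Cre driven by the Nestin promoter is meant to release a *Bmi1* transgene. H3K27me3, the repressive histone mark laid down by the Polycomb repressive complex PRC2, was profiled by the authors in 2 ChIPSeq replicates of each kind, of which they kept and deposited 1 per condition, used here. Per the study's methods all cultures were primary and came from E16.5 mouse embryos, and the cultures of a group were biologically independent. The glioblastoma-initiating samples (mGIC) were not analysed here.

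As background, imprinted genes sit in clusters, each under an imprinting control region whose DNA methylation is inherited from 1 parent. In many clusters the unmethylated copy transcribes a long noncoding RNA, such as *Airn*, *Kcnq1ot1* or *Meg3*, in some clusters required to silence neighbouring genes in cis. Polycomb marking adds to silencing at some of these clusters, and in the nervous system several imprinted genes, among them *Igf2*, *Cdkn1c*, *Peg3* and *Dlk1*, are known for roles in growth and in neural stem cells. The counts and peaks here do not separate the parental copies, so every value is a sum over both.

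Between 18112100 and 61353076 reads were counted on genes per library. CPM below is the read count scaled to the TMM-normalised library size, and RPKM divides it by the exon length in kb, so that only RPKM compares levels between genes. *Bmi1*, the Polycomb gene that the transgene should add, was at 133 and 124 CPM in NSC and at 119 and 113 CPM in the libraries labelled NSC Bmi1Over, with a log2 fold change of −0.15 (standard error 0.12, adjusted p = 0.463 in edgeR's quasi-likelihood test). Whether reads of the transgene were assigned to this gene is not known, so its level neither checks nor contradicts the label. Those libraries are called Bmi1Over-labelled, and every direction below rests on the labels, as does the identity of the ChIPSeq library. The 10 neural stem cell markers summed to between 5999 and 6697 CPM in the 4 libraries. Of the 10, 0 were called in edgeR's test, against 2.03% of all tested genes called higher and 0.122% called lower. At an unadjusted p under 0.05, 2 of the 10 were lower and 0 higher, against 7.22% and 17% of all tested genes. In the Bmi1Over-labelled libraries 6 were lower and 1 higher without overlap, against 30% and 29% of all tested genes, among them *Sox2* (log2 fold change −0.42) and *Slc1a3* (0.46; adjusted p = 0.129 and 0.257, edgeR). Only *C1qa* of the 6 microglial markers and only *Cldn5* of the 6 endothelial markers had 0 reads in all 4 libraries. *Hbb-bs*, an erythroid marker, also had 0 reads in all 4. The 6 microglial markers summed to 1.30 and 1.98 CPM in NSC and to 2.46 and 3.10 CPM in the others. Of these, 1 was tested and 0 called, against 2.03% higher and 0.122% lower of all tested genes. The 6 endothelial markers summed to 3.33 and 4.31 CPM and to 5.77 and 6.35 CPM, with 3 tested. All 3 were higher without overlap, against 29% of all tested genes, and 0 were called, against 2.03% higher and 0.122% lower. The 6 erythroid markers summed to no more than 0.602 CPM, with 4 at 0 in every library. *Syt1* (1 of 7 neuron markers tested) and *Folr1* (1 of 2 choroid plexus markers tested) were called higher in the Bmi1Over-labelled libraries. *Aldh1l1* (1 of 5 astrocyte markers tested) was called lower. Over all tested genes, 2.03% were called higher and 0.122% lower. Of the 7 neuron markers, 5 had a log2 fold change below 0 and 2 above, with a median of −0.21. The choroid plexus list summed to 21.1 and 11.2 CPM in NSC and to 32.2 and 21.7 CPM in the others, with *Ttr* at no more than 0.175 CPM. The mesenchymal list summed to 129.6 and 101.1 CPM in NSC and to 150.7 and 187.6 CPM in the others, most of it *Fn1*. The oligodendrocyte list summed to 1062 and 1245 CPM in NSC and to 1282 and 1466 CPM in the others. The summed levels of the microglial, endothelial, choroid plexus, mesenchymal and oligodendrocyte lists were thus all higher in both Bmi1Over-labelled libraries, while those of the neuron, astrocyte, erythroid and neural stem cell lists overlapped. The part of these cell types in the results was not tested. Unmapped reads made up 11.2% to 13.8% in NSC and 16.2% to 17.6% in the Bmi1Over-labelled libraries, so their share moved with the label, and its part in the results was not tested.

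The imprinted genes differed widely in level in these cultures. By mean unstranded RPKM over the 4 libraries, 3 genes were above 100, namely *Cd81*, a membrane tetraspanin (460), *Nnat*, a small proteolipid of neural progenitors (258), and *Mest*, an enzyme of the hydrolase family (143). A further 9 lay between 10 and 100, led by the retrotransposon-derived gene *Peg10* (60.6) and by *Igf2r* (21.9), the receptor that removes IGF2. Another 12 genes lay between 1 and 10, and 9 between 0.1 and 1. The last 8, *Igf2*, *Ddc*, *Slc22a18*, *Rtl1*, *Mirg*, *Slc38a4*, *Phlda2* and *Dio3*, were below 0.1. These levels come from the unstranded count, which leaves out most reads of *Gnas*, as described below.

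**Figure D1:**
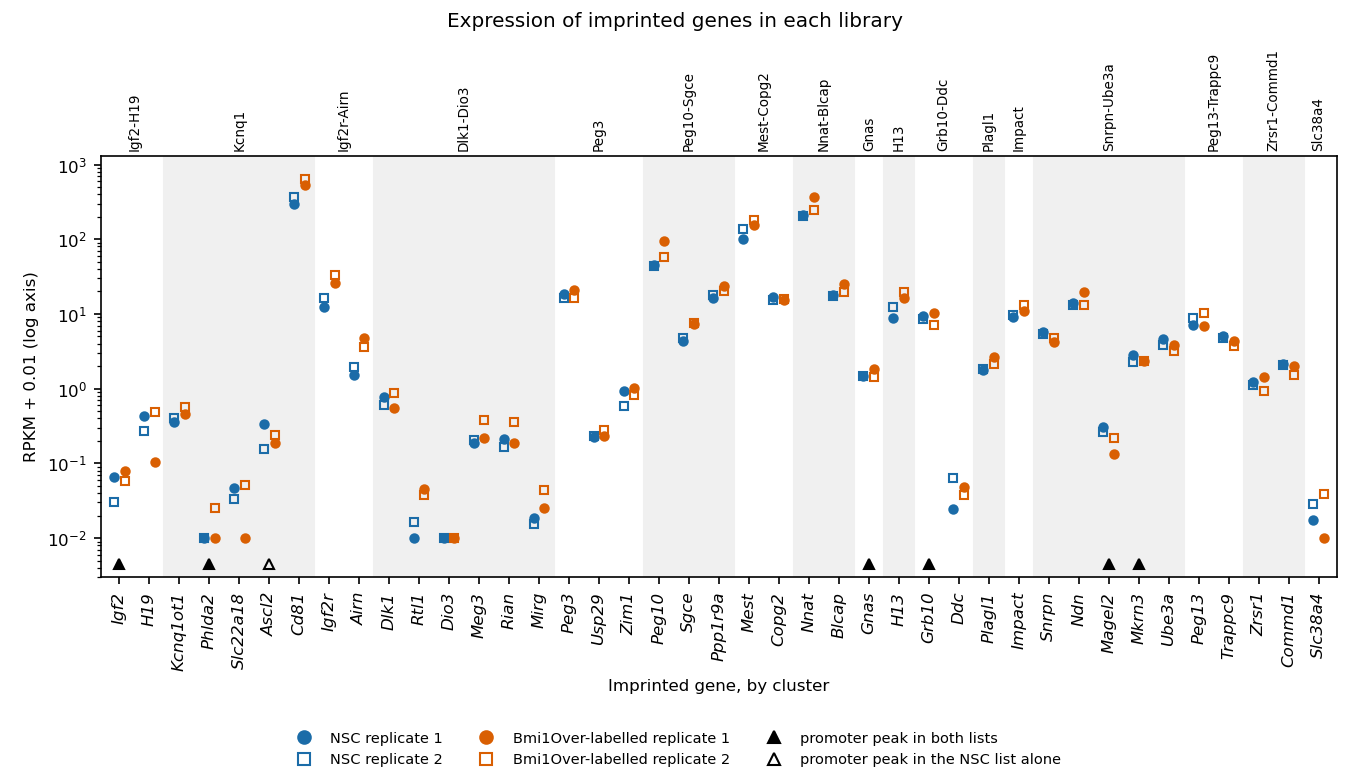
Expression of the 41 imprinted genes by cluster, as RPKM plus 0.01 on a log axis, with each library a point (blue, NSC; orange, Bmi1Over-labelled; filled, replicate 1; open, replicate 2). Triangles mark genes with an H3K27me3 promoter peak in both lists (filled) or in the NSC list alone (open, *Ascl2*), and 12 genes have a mean of at least 10 RPKM, none of them with a triangle, where the unstranded count shown leaves out most reads of *Gnas*.

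In the comparison of the Bmi1Over-labelled cultures with NSC, 32 of the 41 genes had enough reads to be tested. Of these, 3 rose and 0 fell at an adjusted p under 0.05 (edgeR's quasi-likelihood F-test, Benjamini-Hochberg over all 15521 genes), against 2.03% of all tested genes called higher and 0.122% called lower. The 3 were *Igf2r*, *Airn* and *Sgce*. In bulk cultures, fewer cells of a type and less RNA per cell cannot be told apart. The median log2 fold change of the 32 genes was 0.27, against −0.014 over all tested genes, and 22 of the 32 values were above 0. With normalisation to library size alone the median was 0.12, against −0.17 over all genes. At an unadjusted p under 0.05, 13 of the 32 were higher and 0 lower, against 17% and 7.22% of all tested genes. The lowest Bmi1Over-labelled library lay above the highest NSC library for 15 genes, and the order was opposite for 4, where all tested genes gave 29% and 30%. With 2 cultures per group, an exact two-sided permutation test of a single gene cannot give a p below 0.333.

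**Figure D2:**
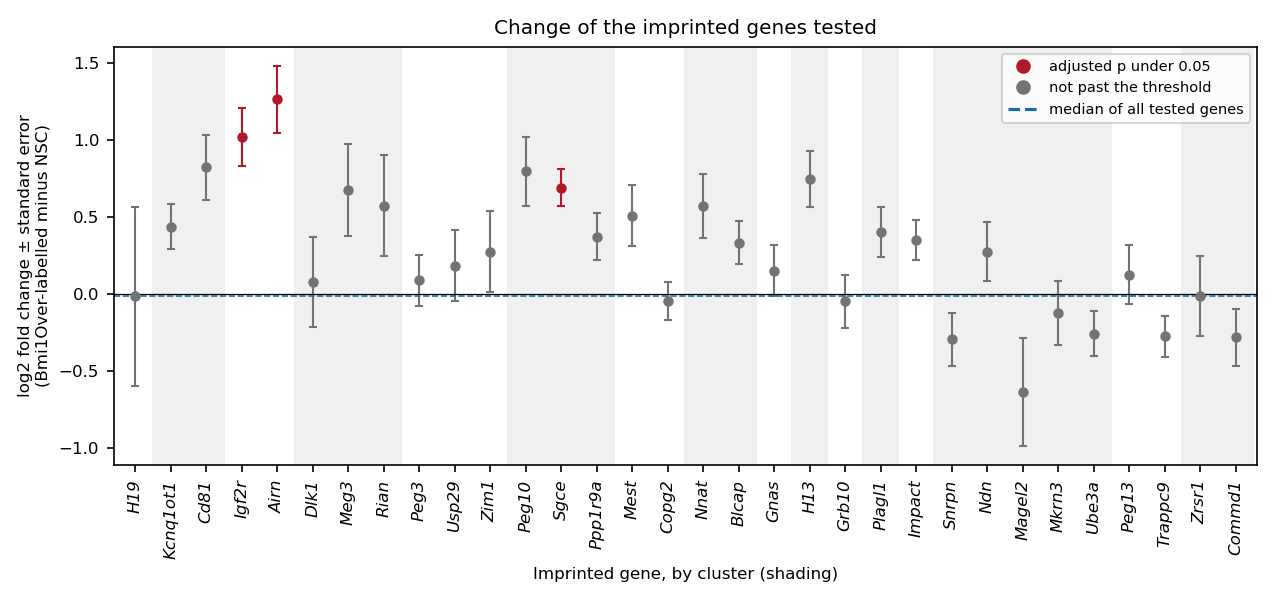
Log2 fold change (Bmi1Over-labelled minus NSC) with its standard error for the 32 imprinted genes tested, ordered by cluster, with shading to part the clusters. *Igf2r*, *Airn* and *Sgce* (red) passed the adjusted p of 0.05, and the dashed line is the median of all tested genes, at −0.014.

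The *Igf2r*-*Airn* cluster held 2 of the 3 calls. *Igf2r* encodes the cation-independent mannose 6-phosphate receptor, which takes IGF2 to the lysosome, and *Airn* is the long noncoding RNA that runs antisense from an intron of *Igf2r* and silences it on the paternal copy. *Igf2r* was at 115.6 and 153.8 CPM in NSC and at 238.5 and 307.2 CPM in the Bmi1Over-labelled cultures. The mean was 14.5 ± 2.90 RPKM in NSC and 29.3 ± 5.21 RPKM in the others (SD, n = 2 each). Both Bmi1Over-labelled values lay above both NSC values, and the log2 fold change was 1.02 (standard error 0.19, adjusted p = 0.0406 in edgeR's test). *Airn* was at 5.48 and 6.96 CPM in NSC and at 17.2 and 12.9 CPM in the Bmi1Over-labelled cultures, or 1.73 ± 0.291 and 4.18 ± 0.852 RPKM (SD, n = 2 each). The groups again did not overlap, with a log2 fold change of 1.26 (standard error 0.22, adjusted p = 0.037 in edgeR's test). The noncoding RNA and the gene it is known to silence were both higher in the same libraries.

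Leaving out single cultures moved these calls. Each such fit leaves 1 group with a single culture, which is assumed to vary like the 2 of the other group. Without NSC replicate 1 or without Bmi1Over-labelled replicate 2, *Igf2r* was no longer called, with log2 fold changes over the 4 omissions from 0.83 to 1.24 and adjusted p up to 0.107 (edgeR). *Airn* was called in each of these 4 fits, with an adjusted p of at most 0.0298 (edgeR). Of the 3597 exon bases of *Airn*, 114 lie within *Igf2r* (3.17%), and the exons of the genes do not overlap, which leaves most counted bases of *Airn* outside *Igf2r*. On mm10, *Airn* spans chr17:12741311-12860136 on the plus strand and *Igf2r* chr17:12682406-12769664 on the minus strand. Of 14 other tested genes within 500 kb of this cluster, 3 were called higher and 0 lower, against 2.03% and 0.122% of all tested genes, in a window set after the values were known. One of them, *Agpat4*, an acyltransferase outside *Airn*, had a log2 fold change of 1.10 (standard error 0.17, adjusted p = 0.029, edgeR). *Gm16574* and *Gm7162* lie within the span of *Airn*, and their log2 fold changes were 1.28 and 1.47 (adjusted p = 0.0493 and 0.044, edgeR). As the libraries do not mark strand, reads of unspliced *Airn* in them cannot be told apart from their own.

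No H3K27me3 peak lay over *Igf2r* and *Airn* or within 10 kb of them in either list. The nearest peak to the start of *Igf2r* stood at 192238 bp in NSC and at 268801 bp in the Bmi1Over-labelled list. *Igf2*, the ligand that IGF2R removes, was near the limit of detection in all 4 cultures, as described below, so the receptor was measured in cultures with little *Igf2* RNA of their own.

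The *Peg10*-*Sgce* cluster gave the third call. *Sgce* encodes epsilon-sarcoglycan and shares a bidirectional promoter region with *Peg10*. *Sgce* was at 46.6 and 50.8 CPM in NSC and at 77.2 and 79.8 CPM in the Bmi1Over-labelled cultures, or 4.59 ± 0.281 and 7.39 ± 0.173 RPKM (SD, n = 2 each). The replicates were close and the groups did not overlap. Its log2 fold change was 0.69 (standard error 0.12, adjusted p = 0.0374 in edgeR's test), and it was no longer called without NSC replicate 1 (adjusted p = 0.23, edgeR). *Peg10* was at 296.8 and 293.3 CPM in NSC and at 634.6 and 390 CPM in the Bmi1Over-labelled cultures. Its groups did not overlap either, but the Bmi1Over-labelled replicates differed widely, and the log2 fold change of 0.80 (standard error 0.22) did not pass the test (adjusted p = 0.0893, edgeR). Without Bmi1Over-labelled replicate 1 it was 0.40, and without replicate 2 it was 1.11 and called (adjusted p = 0.0158, edgeR). *Ppp1r9a*, the actin-binding neurabin, was at 238.6 and 257.8 CPM in NSC and at 348.5 and 293.9 CPM in the Bmi1Over-labelled cultures, with a log2 fold change of 0.37 (adjusted p = 0.183, edgeR). No H3K27me3 peak lay over these 3 genes or within 10 kb in either list, and the nearest to any of the 3 starts was 808970 bp away, in NSC.

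Some genes around this cluster that are not among the 41 were called higher too. Of 9 other tested genes within 500 kb, 4 were called higher and 0 lower, against the 2.03% and 0.122% above, and their median log2 fold change was 0.97. This window was set after the values were known, and the count is given as a description. Over all 17 clusters, 9 of 152 such neighbours were called higher and 0 lower, against 2.03% and 0.122% of all tested genes. Their median log2 fold change was 0.017, and 12 clusters had no called neighbour. Among the 9 are *Asb4*, *Pon2* and *Tssc4*, counted again below as further imprinted genes, and *Gm16574* and *Gm7162*, within the span of *Airn*. *Asb4*, a subunit of a ubiquitin ligase, was at 5.48 and 3.52 CPM in NSC and at 26.9 and 17.1 CPM in the Bmi1Over-labelled cultures, with a log2 fold change of 2.26 (standard error 0.28, adjusted p = 0.0132, edgeR). *Pon2*, a paraoxonase, was at 99.2 and 113.3 CPM and at 198.6 and 181.8 CPM, with a log2 fold change of 0.84 (standard error 0.13, adjusted p = 0.0316, edgeR). For both genes the groups did not overlap. *Casd1*, on the other side of *Sgce*, had a log2 fold change of 0.53 (adjusted p = 0.0642, edgeR) and *Pon3* one of 0.97 (adjusted p = 0.106, edgeR). The remaining calls, *Gm26736* and *Gm44250*, rested on 2, 1, 8 and 56 reads and on 31, 33, 51 and 198 reads in NSC replicates 1 and 2 and Bmi1Over-labelled replicates 1 and 2. *Gm26736* lies inside *Ppp1r9a*. *Pdk4*, beyond *Asb4*, was at −0.47 (adjusted p = 0.454, edgeR).

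**Figure D3:**
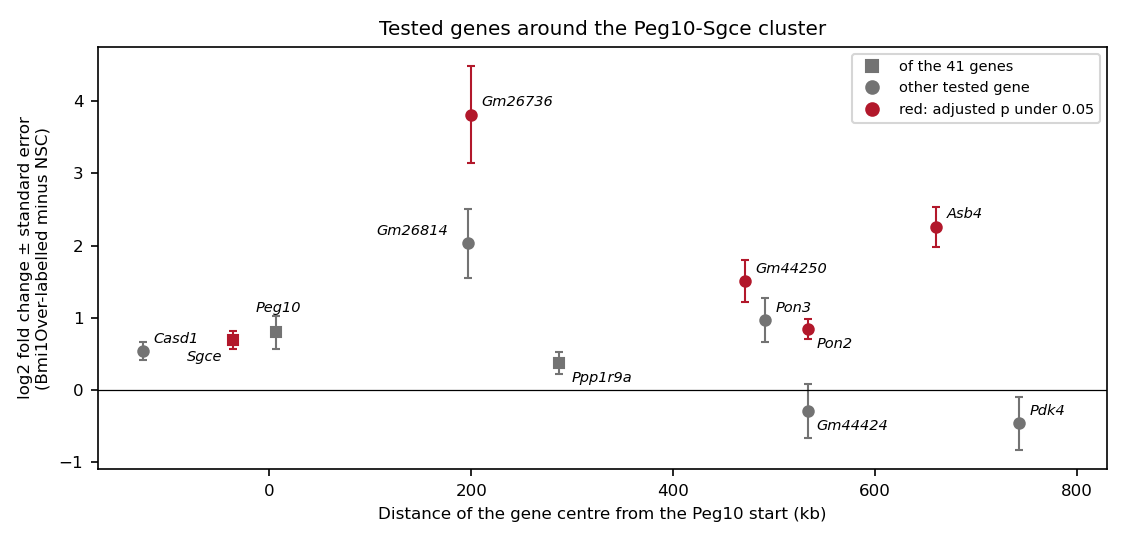
Log2 fold change (Bmi1Over-labelled minus NSC) with its standard error for the 12 tested genes within 500 kb of the *Peg10*-*Sgce* cluster, against the distance of each gene's centre from the *Peg10* start in kb. Squares are genes of the list, circles other tested genes, and red marks an adjusted p under 0.05, reached by *Sgce*, *Pon2*, *Asb4*, *Gm26736* and *Gm44250*.

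H3K27me3 was found near the promoters of 7 of the 41 imprinted genes. Marked genes are those with a broad peak within 5 kb of any annotated transcription start site (TSS). In NSC 7 of the 41 genes were marked, namely *Igf2*, *Phlda2*, *Ascl2*, *Gnas*, *Grb10*, *Magel2* and *Mkrn3*. These are 7 of the 34 protein-coding members, against 8.87% of all protein-coding genes. Of the 7 noncoding RNAs 0 were marked, against 6.05% of all genes of the count files, coding and noncoding together. At such a share, 0 of 7 does not set the noncoding RNAs apart. In the Bmi1Over-labelled list 6 of the 34 were marked, against 4.4%, and all 6 were among the 7 of NSC, against 4.16% of protein-coding genes marked in both. *Ascl2* was marked in NSC alone. With a minimum peak length of 1000 bp, 7 genes were marked in NSC and 2, *Igf2* and *Grb10*, in the Bmi1Over-labelled list, against 3.91% and 1.5% of all protein-coding genes. With 1 library per condition the difference between the lists was not tested. The whole NSC list covered 11542075 bp and the Bmi1Over-labelled list 4807073 bp, or 41.6% of it. Neither list holds its read depth. Per the study's methods the deepest NSC replicate had more aligned reads than the deepest Bmi1Over replicate, and the kept replicates are not named. Depth may thus move with the cover, and its part was not tested.

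**Figure D4:**
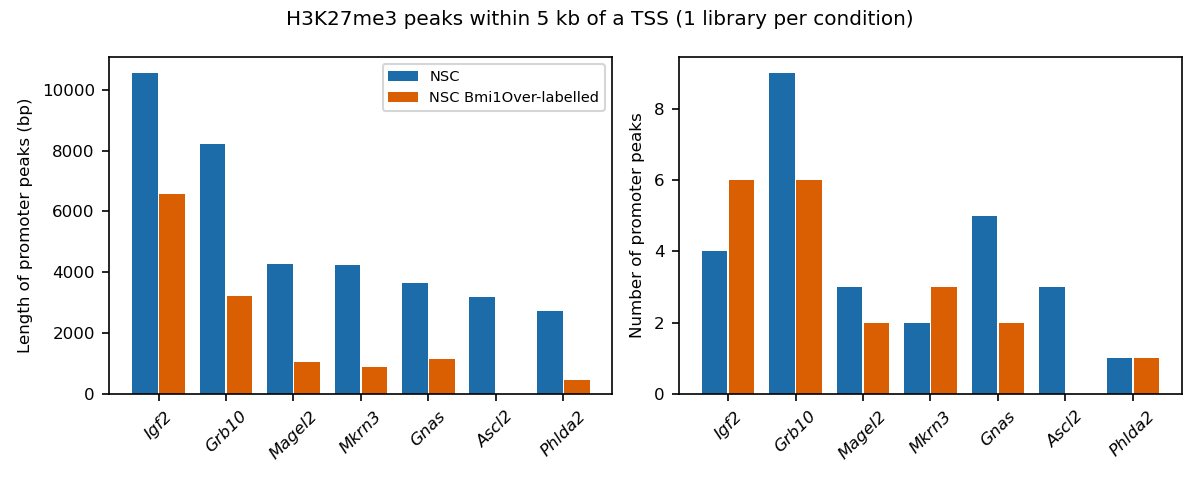
Summed length in bp (left) and number (right) of the H3K27me3 peaks within 5 kb of a TSS for the 7 marked imprinted genes, in NSC (blue) and in the Bmi1Over-labelled library (orange), 1 library each and so without error bars. The length was greater in NSC for all 7, from 10553 bp against 6570 bp at *Igf2* to 3202 bp against 0 bp at *Ascl2*.

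In the unstranded counts, marked genes had a lower median level than unmarked ones. Over the 7 marked genes of NSC the mean unstranded RPKM of the NSC cultures ran from 0 (*Phlda2*) to 9.01 (*Grb10*), with a median of 0.275. *Gnas*, one of the 7, is undercounted there, and with the strand columns added it was at 95.8 and 91.1 RPKM in NSC. Over the 34 without a promoter peak it ran from 0 (*Dio3*) to 332 (*Cd81*), with a median of 3.16. Lack of a peak did not go with expression in every case, as *Dio3*, *Rtl1*, *Mirg*, *Slc38a4*, *Slc22a18* and *Ddc* had neither a promoter peak nor 0.1 RPKM in NSC.

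The promoter sequences of 7 genes are shown to set marked, called and highly expressed genes side by side. RefSeq promoter windows (GRCm38.p6) of 250 bases before and 50 bases after a start were found for 34 of the 41 genes, in 52 windows, and not for *H19*, *Rtl1*, *Peg10*, *Sgce*, *Impact*, *Peg13* and *Trappc9*. Each run below is the longest stretch before the start that lies outside annotated UTRs, read 5′ to 3′ on the strand of the gene, with CpG dinucleotides, the sites of imprinted DNA methylation, in capitals. *Igf2*, *Phlda2* and *Magel2* are marked genes.
Igf2: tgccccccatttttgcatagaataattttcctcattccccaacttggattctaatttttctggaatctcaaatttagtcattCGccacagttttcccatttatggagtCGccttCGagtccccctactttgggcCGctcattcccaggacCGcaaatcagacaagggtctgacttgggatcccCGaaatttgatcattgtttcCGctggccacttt
Phlda2: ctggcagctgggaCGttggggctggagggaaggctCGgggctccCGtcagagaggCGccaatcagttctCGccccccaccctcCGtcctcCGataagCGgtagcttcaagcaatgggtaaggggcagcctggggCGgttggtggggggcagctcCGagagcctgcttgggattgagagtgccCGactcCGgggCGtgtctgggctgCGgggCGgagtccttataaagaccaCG
Magel2: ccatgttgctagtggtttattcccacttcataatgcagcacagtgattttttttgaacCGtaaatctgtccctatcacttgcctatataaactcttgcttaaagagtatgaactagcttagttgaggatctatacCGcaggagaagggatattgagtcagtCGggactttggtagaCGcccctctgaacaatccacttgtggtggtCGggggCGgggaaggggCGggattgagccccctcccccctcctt
*Igf2r* and *Airn* are the called pair of chromosome 17.
Igf2r: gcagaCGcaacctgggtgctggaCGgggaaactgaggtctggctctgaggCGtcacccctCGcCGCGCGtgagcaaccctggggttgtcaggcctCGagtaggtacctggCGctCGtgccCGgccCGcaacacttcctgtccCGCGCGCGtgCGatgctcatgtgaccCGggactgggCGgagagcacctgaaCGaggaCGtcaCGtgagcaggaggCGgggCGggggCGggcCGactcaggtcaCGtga
Airn: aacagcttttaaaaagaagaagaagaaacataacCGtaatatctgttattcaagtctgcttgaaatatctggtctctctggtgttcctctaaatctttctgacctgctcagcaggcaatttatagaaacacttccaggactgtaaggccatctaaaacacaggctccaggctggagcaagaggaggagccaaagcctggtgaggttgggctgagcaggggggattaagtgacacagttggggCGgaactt
*Cd81* and *Nnat* are highly expressed genes without a mark.
Cd81: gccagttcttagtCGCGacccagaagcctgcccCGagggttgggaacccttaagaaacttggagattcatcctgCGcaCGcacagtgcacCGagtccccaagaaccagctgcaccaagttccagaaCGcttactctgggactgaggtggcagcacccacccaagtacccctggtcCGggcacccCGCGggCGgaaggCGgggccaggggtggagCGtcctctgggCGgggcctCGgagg
Nnat: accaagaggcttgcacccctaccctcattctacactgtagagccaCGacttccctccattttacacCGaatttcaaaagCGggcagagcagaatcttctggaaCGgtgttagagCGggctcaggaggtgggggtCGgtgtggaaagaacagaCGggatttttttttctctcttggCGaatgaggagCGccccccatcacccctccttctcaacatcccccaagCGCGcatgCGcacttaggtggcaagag

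The runs lie at chr7:142661306-142661521 (*Igf2*, minus strand), chr7:143502542-143502774 (*Phlda2*, minus), chr7:62376729-62376978 (*Magel2*, plus), chr17:12769707-12769956 (*Igf2r*, minus), chr17:12741061-12741310 (*Airn*, plus), chr7:143052500-143052738 (*Cd81*, plus) and chr2:157559828-157560077 (*Nnat*, plus). The *Igf2r* run holds 27 CpGs in 250 bases and the *Airn* run 2. The *Phlda2* run holds 16 in 233 bases, *Cd81* 15 in 239, *Nnat* 12 in 250, and *Magel2* 7 in 250. The *Igf2* run holds 7 in 216 bases and was covered over its whole length by peaks of both lists. The *Phlda2* and *Magel2* runs were covered by NSC peaks alone, and the other 4 by none.

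Over the 52 windows of imprinted genes, the median number of CpGs in 300 bases was 13.5, against 7 over all 32851 RefSeq windows. The 14 windows of genes marked in NSC had a median of 19.5 and the other 38 a median of 10.5, where several windows belong to 1 gene and overlap. The motif TGCCGC, the core bound by the imprint protector ZFP57 when methylated, was searched on both strands with no other motif. It occurred in 11 of the 52 windows (21.2%), belonging to 10 genes, and in 11.6% of all windows. These matches describe letters and not bound sites.

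At the *Igf2*-*H19* cluster the mark covered *Igf2*, the paternally expressed growth factor, and left out *H19*, the maternally expressed noncoding RNA downstream. In NSC, 4 peaks covered 10553 bp (65.7% of the *Igf2* gene), the widest of 8827 bp at chr7:142657615-142666441, spanning a TSS, enriched 8.85-fold at a −log10 q of 14.1. In the Bmi1Over-labelled list, 6 peaks covered 6570 bp (40.9%), the widest of 3906 bp, with a fold enrichment of 6.42. This is 62.3% of the length in NSC, the highest such share among the 5 clusters with peaks. The nearest peak to a start of *H19* was 75489 bp away in NSC. *Igf2* had 10 and 3 reads in NSC and 7 and 16 reads in the Bmi1Over-labelled cultures, too few to be tested. *H19* had 33, 16, 4 and 68 reads in the same order, or 1.05, 0.63, 0.23 and 1.19 CPM, so that the Bmi1Over-labelled replicates enclosed both NSC values (log2 fold change −0.016, standard error 0.58, adjusted p = 0.989, edgeR).

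The *Kcnq1* cluster held both the most highly expressed imprinted gene and some of the least expressed. *Cd81* was at 842 and 1071 CPM in NSC and at 1546 and 1832 CPM in the Bmi1Over-labelled cultures, without overlap. Its log2 fold change of 0.82 (standard error 0.21) missed the threshold (adjusted p = 0.0764, edgeR), and its own replicates differed in both groups. It was called under 5 of 11 alternatives, with adjusted p from 0.000136 (DESeq2) to 0.638 (edgeR, without NSC replicate 1). *Kcnq1ot1*, the paternally expressed noncoding RNA of the cluster, was at 32.4 and 36.7 CPM in NSC and at 41.5 and 51.6 CPM in the Bmi1Over-labelled cultures (log2 fold change 0.44, standard error 0.15, adjusted p = 0.123, edgeR). Its groups did not overlap. The count is spread over 93092 exon bases that all lie inside the gene *Kcnq1*. *Kcnq1* itself had 0, 2, 1 and 0 reads in NSC replicates 1 and 2 and Bmi1Over-labelled replicates 1 and 2.

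The maternally expressed genes on either side of them were nearly silent. *Phlda2*, a growth restrainer best known from the placenta, had 1 read in all 4 libraries together. *Slc22a18*, a transporter, had 2, 1, 0 and 4 reads. *Ascl2*, a transcription factor of trophoblast and intestinal stem cells, had 17, 6, 5 and 21 reads. All 3 were too low to test.

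The mark lay over the ends of the *Kcnq1* cluster and within it, but not over *Cd81*. In NSC 37 peaks covered 27557 bp and in the Bmi1Over-labelled list 10 peaks covered 3474 bp, or 12.6% of the NSC length, the lowest share among the 5 clusters with peaks. At *Phlda2* a single peak of 2741 bp covered the whole gene in NSC, where the Bmi1Over-labelled peak measured 469 bp and covered 19.7%. At *Ascl2*, 2 of the 3 promoter peaks reached the gene and covered 78.6% of it in NSC, and none lay within 238344 bp of a start in the Bmi1Over-labelled list. *Cdkn1c*, the growth-restraining CDK inhibitor that is a known target of *Kcnq1ot1*, was covered over 87.7% by an NSC peak of 2452 bp and by no Bmi1Over-labelled peak. It was at 2.82 and 1.503 CPM in NSC and at 1.26 and 1.65 CPM in the Bmi1Over-labelled cultures, with overlap (log2 fold change −0.55, adjusted p = 0.366, edgeR). Within *Kcnq1ot1*, 16 peaks lay in NSC and 7 in the Bmi1Over-labelled list, the nearest 49239 and 49899 bp downstream of its start. Neither *Cd81* nor *Slc22a18* carried a peak in its body.

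In the *Snrpn*-*Ube3a* cluster all peaks of both lists lay beyond *Snrpn*, from upstream of *Ndn* to past *Mkrn3*. The cluster corresponds to the Prader-Willi region, whose paternally expressed genes are known for roles in hypothalamic neurons and puberty. No peak lay from *Ube3a* to *Snrpn* over 911470 bp. Of the 65 NSC peaks of the cluster, 25 lay between *Snrpn* and *Ndn* and covered 18420 bp, the nearest of them 41138 bp before *Ndn*. In the Bmi1Over-labelled list 10 of 34 peaks lay there and covered 3866 bp, the nearest 112984 bp before *Ndn*. From *Ndn* to *Mkrn3*, a span of 73571 bp, 38 peaks covered 36.3% in NSC and 18 peaks covered 9.5% in the Bmi1Over-labelled list. Between *Ndn* and *Magel2* the cover was 58.4% and 21.5%. The *Ndn* gene itself was free of peaks in both lists, with the nearest peak 1747 bp beyond its end in NSC and 2142 bp in the Bmi1Over-labelled list. The *Magel2* start was spanned by an NSC peak of 1893 bp, and the nearest Bmi1Over-labelled peak ended 873 bp before it. *Mkrn3* was reached only upstream of its start, at 2523 and 1564 bp.

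Levels differed between *Ndn*, *Magel2* and *Mkrn3*. *Ndn*, the MAGE protein necdin of postmitotic neurons, had a mean of 15.0 RPKM and was at 51.6 and 48.2 CPM in NSC and at 73.4 and 48.1 CPM in the Bmi1Over-labelled cultures, which overlapped. *Magel2*, a MAGE protein that works with a ubiquitin ligase, was much lower, at 1.36 and 1.19 CPM in NSC and at 0.57 and 0.96 CPM in the Bmi1Over-labelled cultures. Its groups did not overlap, yet the log2 fold change of −0.64 (standard error 0.35) did not pass the test (adjusted p = 0.297, edgeR). It was −0.41 without Bmi1Over-labelled replicate 1 and −1.16 without replicate 2. *Mkrn3*, the ubiquitin ligase whose loss causes early puberty, lay between them at a mean of 2.45 RPKM, with a log2 fold change of −0.12 (adjusted p = 0.732, edgeR). In the unmarked part, *Ube3a*, the ubiquitin ligase of Angelman syndrome, had a log2 fold change of −0.26 and *Snrpn*, a splicing protein, one of −0.29 (adjusted p = 0.303 and 0.319, edgeR). Antisense and overlapping genes share 27.3% and 34.1% of their exon bases, and shared reads were not counted.

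**Figure D5:**
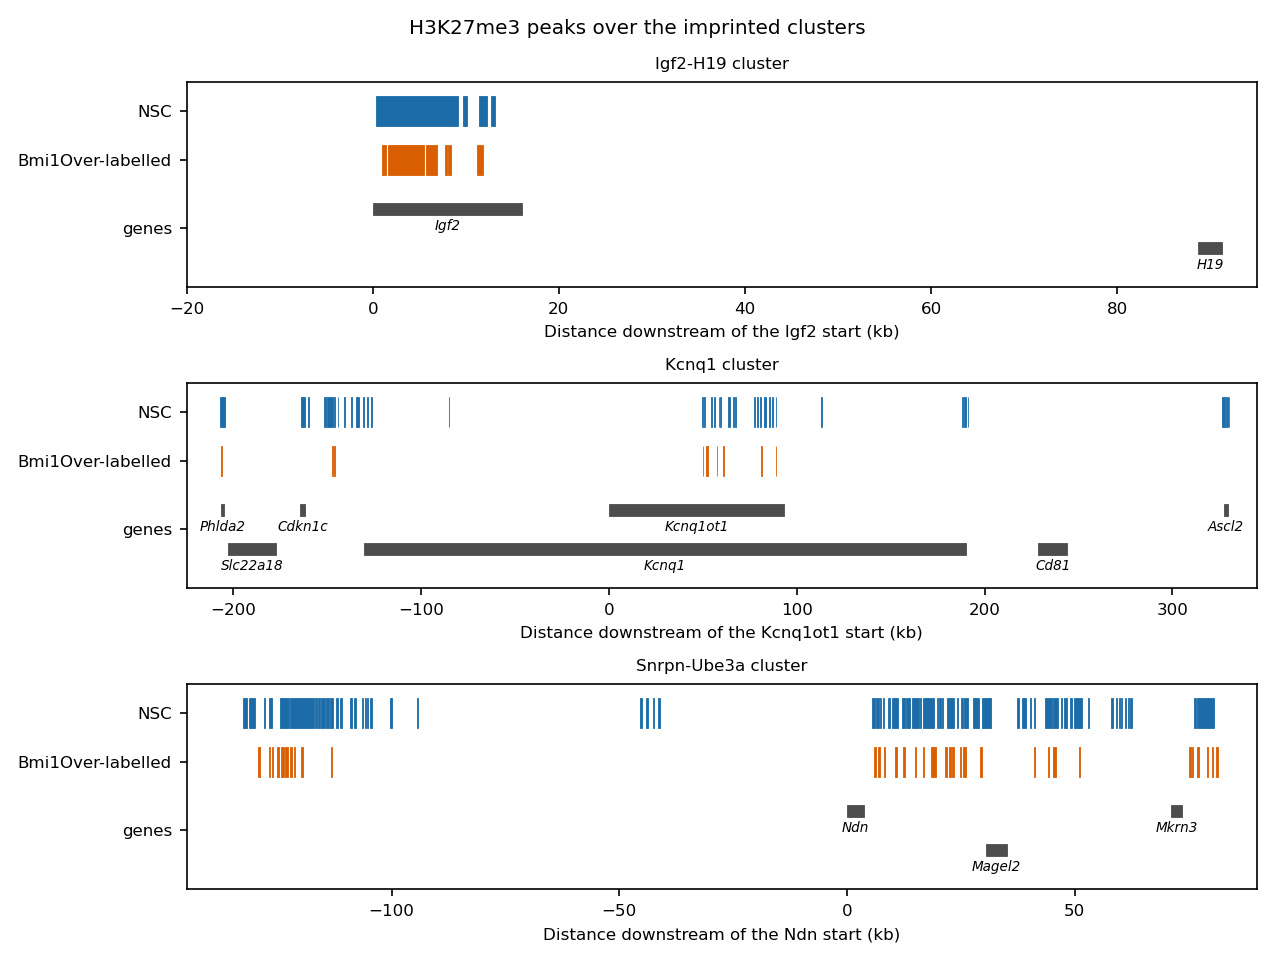
H3K27me3 peaks (boxes, to scale) in NSC (blue) and in the Bmi1Over-labelled library (orange) along 3 clusters, with gene bodies in grey, against distance in kb downstream of the start of *Igf2*, *Kcnq1ot1* and *Ndn*. Peaks cover *Igf2* but not *H19*, flank the start of *Kcnq1ot1* at a distance, and run from beside *Ndn* past *Mkrn3* while sparing the *Ndn* gene.

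At *Gnas*, which makes several proteins from alternative promoters including the stimulatory G protein alpha subunit, 5 NSC peaks covered 3643 bp and 2 Bmi1Over-labelled peaks 1159 bp, or 31.8%. They lay around the upstream starts. The first RefSeq start, at position 174284320 of chromosome 2, was 434 bp from a peak in NSC and 1908 bp from one in the Bmi1Over-labelled list, and the other 3 RefSeq starts were at least 29433 bp from any peak. *Gnas* was at 16.3 and 16.5 CPM in NSC and at 20.6 and 16.1 CPM in the Bmi1Over-labelled cultures, with overlap (log2 fold change 0.15, adjusted p = 0.586, edgeR). This count is far below the transcription of the locus. With the strand columns added, the same libraries hold 33808, 25758, 18270 and 51318 reads on *Gnas* in place of 514, 417, 361 and 917, where antisense genes overlap 22% of its exon bases and reads shared with them are left out of the unstranded count. For *Mest* and *Ube3a* the strand columns together hold 1.65 and 1.63 times the unstranded count. The level of *Gnas* among the other genes is therefore not interpretable, and its direction turned under the strand columns, to −0.10.

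*Grb10*, an adaptor that restrains insulin and IGF signalling and is paternally expressed in neurons, carried the mark and was expressed. It was at 85.1 and 78.8 CPM in NSC and at 93.6 and 65.4 CPM in the Bmi1Over-labelled cultures, which enclosed both NSC values (log2 fold change −0.049, standard error 0.17, adjusted p = 0.88, edgeR). In NSC 9 peaks covered 8230 bp near its starts and in the Bmi1Over-labelled list 6 covered 3218 bp, or 39.1%. The most upstream RefSeq start, at 12037420 of chromosome 11, lay inside an NSC peak of 1963 bp and 475 bp from a Bmi1Over-labelled peak. The other RefSeq start was 355 and 367 bp from a peak. *Ddc*, the neighbouring aromatic amino acid decarboxylase, had 2, 6, 3 and 7 reads and no promoter peak.

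The other strongly expressed clusters were free of the mark within 10 kb. *Nnat*, which lies inside *Blcap*, was at 381.7 and 376.9 CPM in NSC and at 675.9 and 451.8 CPM in the Bmi1Over-labelled cultures. The NSC replicates were close, the groups did not overlap, and the log2 fold change was 0.57 (standard error 0.21, adjusted p = 0.144, edgeR). Without Bmi1Over-labelled replicate 1 it was 0.25, and without replicate 2 it was 0.83 and called (adjusted p = 0.0471, edgeR). *Blcap*, the host gene, had a log2 fold change of 0.33 (adjusted p = 0.194, edgeR). *Mest* was at 394.8 and 540 CPM in NSC and at 606 and 722.8 CPM in the Bmi1Over-labelled cultures, again without overlap, with a log2 fold change of 0.51 (standard error 0.20, adjusted p = 0.171, edgeR), which was 0.30 without NSC replicate 1. Its neighbour *Copg2*, a coat protein subunit that overlaps *Mest* tail to tail, was at −0.048 (adjusted p = 0.829, edgeR). Since 17.8% of *Copg2* exon bases are shared with *Mest*, adding the strand columns turned its value to 0.49 as *Mest* reads entered the count.

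*H13*, a signal peptide peptidase, was at 78.9 and 110.7 CPM in NSC and at 144.4 and 173 CPM in the Bmi1Over-labelled cultures. It came near the threshold without passing it (log2 fold change 0.75, standard error 0.18, adjusted p = 0.0674, edgeR), and was called under 5 of 11 alternatives, with adjusted p from 9.14e-05 (edgeR, no filter on low counts) to 0.521 (edgeR, without NSC replicate 1). *Plagl1*, a zinc finger factor seen as a hub of the imprinted gene network, had a log2 fold change of 0.40, and *Impact*, a regulator of translation, one of 0.35 (adjusted p = 0.179 and 0.156, edgeR). For these 3 genes the groups did not overlap.

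The *Dlk1*-*Dio3* cluster was low throughout. *Dlk1*, a Notch-like ligand that acts in the postnatal neural stem cell niche, was at 4.37 and 3.36 CPM in NSC and at 3.03 and 4.94 CPM in the Bmi1Over-labelled cultures, with full overlap (log2 fold change 0.077, adjusted p = 0.888, edgeR). The maternally expressed noncoding RNAs *Meg3* and *Rian* had log2 fold changes of 0.68 and 0.57 with standard errors of 0.30 and 0.33 (adjusted p = 0.209 and 0.308, edgeR). *Meg3* was at 3.23 and 3.56 CPM in NSC and at 3.77 and 6.79 CPM in the Bmi1Over-labelled cultures, so that replicate 2 of the latter stood above the other 3 libraries. Without Bmi1Over-labelled replicate 1, *Meg3* was at 0.998 and *Rian* at 0.92, both called (adjusted p = 0.0258 and 0.0403, edgeR), and without replicate 2 they were at 0.15 and −0.022. Both values thus rested on replicate 2. *Mirg* had 2, 1, 2 and 14 reads and *Rtl1* 0, 1, 4 and 10. *Dio3*, the thyroid hormone deiodinase, had 0 reads in all 4 libraries, which at 3 reads allows up to 0.0525 to 0.171 CPM per library by counting error alone. Although 3 of the 6 genes were barely detected, no peak lay over the 6 genes or within 10 kb of them in either list.

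In the *Peg3* cluster, *Peg3*, a zinc finger protein known from maternal behaviour and growth, was at 247.5 and 220.3 CPM in NSC and 280.6 and 216.9 CPM in the Bmi1Over-labelled cultures with overlap (log2 fold change 0.088, standard error 0.17, adjusted p = 0.762, edgeR). *Usp29* and *Zim1* were lower, at means of 0.234 and 0.833 RPKM, with log2 fold changes of 0.18 and 0.27 (adjusted p = 0.636 and 0.539, edgeR). *Peg13*, a noncoding RNA, and *Trappc9*, a trafficking protein in which it lies, were at 0.13 and −0.27 (adjusted p = 0.709 and 0.245, edgeR). *Zrsr1*, a splicing protein, and its host *Commd1* were at −0.013 and −0.28 (adjusted p = 0.979 and 0.369, edgeR). *Slc38a4*, an amino acid transporter of placenta and liver, had 1, 2, 0 and 7 reads. None of these clusters held a peak. Measured over the listed genes and 10 kb on each side, 12 of the 17 clusters, with 26 of the 41 genes, had 0 peaks in both lists. Further imprinted genes outside these spans did carry promoter peaks, among them *Slc22a3* (3 in NSC, 0 in the Bmi1Over-labelled list), *Kcnk9* (3 and 2), *Klf14* (4 and 5) and *Begain* (1 and 0).

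The parental copy is the one listed for each gene and was not measured here. By this list, 2 of 17 tested paternally expressed genes and 1 of 13 tested maternally expressed genes were called higher. The share over all tested genes was 2.03%. The median log2 fold changes of the paternal and maternal genes were 0.28 and 0.33. Over the 7 noncoding RNAs, 6 were tested, *Airn* was called, and the median was 0.51.

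Among 36 further imprinted genes, 24 were tested, 3 rose and 0 fell, against 2.03% and 0.122% of all tested genes, with a median log2 fold change of 0.16. The 3 were *Asb4* and *Pon2*, described with *Peg10*, and *Tssc4*, a small spliceosome-associated protein gene next to *Cd81*. *Tssc4* was at 83.0 and 122.8 CPM in NSC and at 189.9 and 241 CPM in the Bmi1Over-labelled cultures (log2 fold change 1.07, standard error 0.20, adjusted p = 0.0428, edgeR). Of the most expressed genes of this list, *Smoc1* was at −0.18, *Nap1l4* at −0.22 and *Nap1l5* at −0.17 (adjusted p = 0.52, 0.387 and 0.401, edgeR). A promoter peak was found for 11 of the 36 in NSC and for 7 in the Bmi1Over-labelled list. Among the 32 protein-coding genes of the list these were 10 and 6, against 8.87% and 4.4% of all protein-coding genes. *Zdbf2*, a paternally expressed gene of body growth, had the widest cover, 42592 bp in NSC and 11214 bp in the Bmi1Over-labelled list, and *Calcr*, the calcitonin receptor gene, had 13293 and 3664 bp.

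Of 16 genes that keep or set imprints, 14 were tested and 0 were called in edgeR's test, against 2.03% higher and 0.122% lower of all tested genes. At an unadjusted p under 0.05 there were 0, against 17% and 7.22%. The median log2 fold change was 0.0072. *Trim28*, the corepressor that works with ZFP57, led in level at 84.6 RPKM (log2 fold change −0.067, adjusted p = 0.8, edgeR). *Uhrf1* (57.5 RPKM) and *Dnmt1* (51.4 RPKM), which copy DNA methylation after replication, had log2 fold changes of 0.030 and 0.014, and the histone methyltransferase *Ehmt2* one of 0.079 (adjusted p = 0.911, 0.963 and 0.747, edgeR). *Zfp445*, a zinc finger protein that protects imprints, was at 27.4 RPKM (adjusted p = 1, edgeR). None of the 16 had a promoter peak in either list, against 8.87% of all protein-coding genes in NSC and 4.4% in the Bmi1Over-labelled list.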

How the data were processed

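RNASeq reads were trimmed by the authors with Trim Galore and aligned to mm10 with STAR, and the deposited unstranded counts per gene carry no normalisation. Reads overlapping exons of more than 1 gene were left out of these counts. For ChIPSeq the authors aligned reads with Bowtie2 2.3.4 (per the labels) and called broad peaks with MACS2 in 1 library per condition, and the deposited peak lists hold fold enrichments (a ratio over background), −log10 p-values and −log10 q-values per peak. The display score deposited by the authors was not used.

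Gene symbols and TSS came from GENCODE vM21, and 50462 of 50686 identifiers matched. Counts were filtered with filterByExpr, normalised by TMM and tested with edgeR 4.0.16 (quasi-likelihood F-test, without a replicate term, R 4.3.3), calling genes at a Benjamini-Hochberg adjusted p under 0.05. Alternatives used DESeq2 1.42.0. RPKM was computed here from these counts and the union of annotated exons. Peaks within 5 kb of a TSS were assigned with at least 1 bp of overlap in Python 3.11.15. On simulated counts for this comparison, over 15495 genes, 90% of 2-fold and 100% of 4-fold changes were called. The simulation gave all genes the same dispersion and changed only genes above a minimum read count. These shares therefore do not extend to genes with few reads or with a wider spread between cultures. Too few reads for the test were found for 9 of the 41 genes, where low depth and lack of expression cannot be told apart. The 41 genes, the further lists (imprinted genes, imprint regulators, cell type markers) and the tests were chosen with earlier results of these data known. Named were all 41 genes, and of the further imprinted genes and the regulators those called and the 5 with the highest RPKM. *Casd1*, *Pon3*, *Pdk4*, *Cdkn1c*, *Zdbf2*, *Calcr*, *Slc22a3*, *Kcnk9*, *Klf14*, *Begain*, *Agpat4*, predicted genes and markers were named after their values were seen. The mGIC samples were not analysed here.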

Additional observations from a re-analysis of the deposited data

How the results depend on the processing

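The number of imprinted genes called was 3 with DESeq2's size factors (244 of all genes), library size alone, a minimum of 1 CPM in 2 libraries (282) and the summed strand columns (329), as in the main test (334), 7 with DESeq2's Wald test (1422 of all genes), 8 without a filter on low counts (2356 of all genes) and 1 to 9 with each culture left out (176 to 2546 of all genes), and 0 were called lower in any of these. It was 1 without NSC replicate 1 (176 of all genes), 5 without NSC replicate 2 (1461), 9 without Bmi1Over-labelled replicate 1 (2546) and 4 without replicate 2 (230). With library size alone 537 genes were called in all and the median of the imprinted genes moved to 0.1242, as the median of all genes moved to −0.1655 and the share of higher calls to 64.4% from 94.3%. With a replicate block the calls were 12 of the imprinted genes and 3459 of all genes. The replicate numbers of the labels give only 2 pairs and no shared source, and the differences between replicates correlated at r = 0.235 over genes, so the block was not used in the main test. Calls gained were *Cd81*, *Peg10*, *Nnat* and *H13* with DESeq2's Wald test, these and *Mest* without a filter, and these 5 with *Kcnq1ot1*, *Ppp1r9a*, *Blcap* and *Impact* under the block. They were *Cd81* and *H13* without NSC replicate 2, these with *Kcnq1ot1*, *Meg3*, *Rian* and *Impact* without Bmi1Over-labelled replicate 1, and *Peg10* and *Nnat* without replicate 2. With a culture left out, 1 group holds a single culture, assumed to vary like the other group. The calls lost when a culture was left out were *Igf2r* without NSC replicate 1 or Bmi1Over-labelled replicate 2 and *Sgce* without NSC replicate 1. Directions that turned were those of *Dlk1* (−0.08434), *Peg3* (−0.05989) and *Peg13* (−0.02598) with library size alone, *H19* (0.006774) with the minimum of 1 CPM, and *Copg2* (0.491) and *Gnas* (−0.1016) with the strand columns. With cultures left out, ranges crossed 0 for *H19* (−1.874 to 0.4766), *Copg2* (−0.1294 to 0.031), *Grb10* (−0.3281 to 0.1926), *Mkrn3* (−0.2606 to 0.02675), *Peg13* (−0.1805 to 0.3608), *Zrsr1* (−0.3305 to 0.2986), *Dlk1* (−0.3575 to 0.3418), *Zim1* (−0.02675 to 0.6684), *Peg3* (−0.1122 to 0.264), *Gnas* (−0.0336 to 0.3324), *Ndn* (−0.05806 to 0.5573) and *Rian* (−0.02206 to 0.9204). None of these was called in the main test. Without changing sign, values also moved by over 1.5 times for *Ppp1r9a* (0.24), *Blcap* (0.16), *Plagl1* (0.24), *Usp29* (0.30), *Commd1* (−0.47) and *Ube3a* (−0.39) without Bmi1Over-labelled replicate 1, and for *Kcnq1ot1* (0.27), *Impact* (0.22), *Usp29* (0.028), *Trappc9* (−0.16), *Commd1* (−0.093) and *Ube3a* (−0.13) without replicate 2, and for *Ube3a* (−0.12) without NSC replicate 1. Marked genes in the Bmi1Over-labelled list, and in both lists, were 3 with a fold enrichment of at least 5 and 2 with peaks of at least 1000 bp, against 2.55% and 1.5% of protein-coding genes in the Bmi1Over-labelled list (3.09% and 3.91% in NSC), and 5 with a window of 1 kb (3.02%) or a −log10 q of at least 3 (3.06%). In NSC they were 6 or 7 under every peak setting. The cause of these shifts was not tested.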
